A study of Mus musculus with 12 samples.

Results

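The genes described here make, carry, sense and break down retinoic acid. They are *Rdh10* and *Aldh1a2* (synthesis), *Dhrs3* (the return of retinal to retinol, which opposes synthesis), *Cyp26a1*, *Cyp26b1* and *Cyp26c1* (breakdown), *Crabp2* (carriage in the cell) and *Rara*, *Rarb* and *Rarg* (the receptors). These 10 genes were taken by symbol from 38911 genes, after the counts of the RefSeq transcripts of each gene had been added up. All 10 had counts in each of the 12 libraries and passed the filter on low counts, which 16966 genes passed.

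The libraries hold polyA RNA of mouse gastruloids, aggregates of embryonic stem (ES) cells that break symmetry and form posterior mesoderm and neural progenitors in culture. They were made from 1 ES cell line, E14TG2a grown in 2iLIF, and were harvested on day 4. From day 3 to day 4 the groups received 1× glucose (21.25 mM), 0× glucose (none), 3× glucose (63.75 mM) or 5 mM 2-DG in 1× glucose, where 2-DG is 2-deoxy-D-glucose, a glucose mimic. All groups had received the Wnt pathway activator CHIR on day 2. Each group holds 3 libraries, 1 from each of ES cell passages 13, 15 and 16. Per the methods of the study, each library pools the gastruloids of 1 treatment from 1 plate, which are a part of that plate. The methods also describe treatments as done within the same plate, so that the libraries of a passage may share a plate. Depth was 31902471 to 45956080 counts per library. The labels do not say whether the passages differ in anything but the culture, such as the day of the experiment. Of the 6 markers of paraxial and presomitic mesoderm all were present in every library, while of 5 markers of extraembryonic endoderm *Ttr* and *Afp* were at 0 in all of them and the 5 summed to at most 0.85 CPM.

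Retinoic acid is made from vitamin A in 2 steps. Rdh10 oxidises retinol to retinal, Dhrs3 reduces retinal back to retinol, and Aldh1a2 oxidises retinal to retinoic acid. The Cyp26 enzymes inactivate retinoic acid, and the receptors bind DNA with partner receptors of the RXR family at paired half-sites. In the elongating embryo Aldh1a2 acts in the somites and anterior presomitic mesoderm and Cyp26a1 in the tail bud, so that retinoic acid is high in front and low behind. *Cyp26a1*, *Rarb*, *Dhrs3* and *Crabp2* are themselves known to respond to retinoic acid.

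The levels spanned a wide range. Per kilobase of 1 RefSeq transcript of each gene, *Crabp2* stood highest in 1× glucose at 157 ± 48.3 CPM per kilobase (CPM are counts divided by the normalized size of the library; mean ± SD, n = 3 here and below). *Aldh1a2* followed at 140 ± 67.4, *Rarg* at 53.9 ± 19.8, *Cyp26a1* at 30.3 ± 13.8 and *Rara* at 12.5 ± 1.78 CPM per kilobase. *Rdh10* (4.58 ± 0.58), *Dhrs3* (4.48 ± 0.76) and *Rarb* (4.00 ± 2.46) lay close together, and *Cyp26c1* (0.35 ± 0.06) and *Cyp26b1* (0.14 ± 0.04) were lowest. *Crabp2* and *Aldh1a2* did not differ beyond their spread, nor did *Rdh10*, *Dhrs3* and *Rarb*. *Rarg* overlapped both *Aldh1a2* and *Cyp26a1*, though it exceeded *Cyp26a1* in each passage. *Cyp26a1* and *Rara*, *Rara* and *Rdh10*, and *Rarb* and *Cyp26c1* had no overlap among the libraries of the group. *Cyp26c1* and *Cyp26b1* had none per kilobase but overlapped in CPM (0.50 to 0.72 and 0.47 to 0.77). Their lengths came from transcripts with 0 and 10 counts over all libraries, so their order is not settled. The length of *Dhrs3* was also not that of its most abundant transcript. *Cyp26a1* was thus the most abundant of the breakdown genes, and *Cyp26b1* and *Cyp26c1* rested on 12 to 35 and 7 to 33 counts per library. *Rarg* was the most abundant receptor and *Rarb* the least. In 2-DG the order of *Cyp26a1* (11.2 ± 2.39 CPM per kilobase) and *Rara* (15.6 to 16.7 CPM per kilobase) was turned, again with no overlap.

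**Figure D1:**
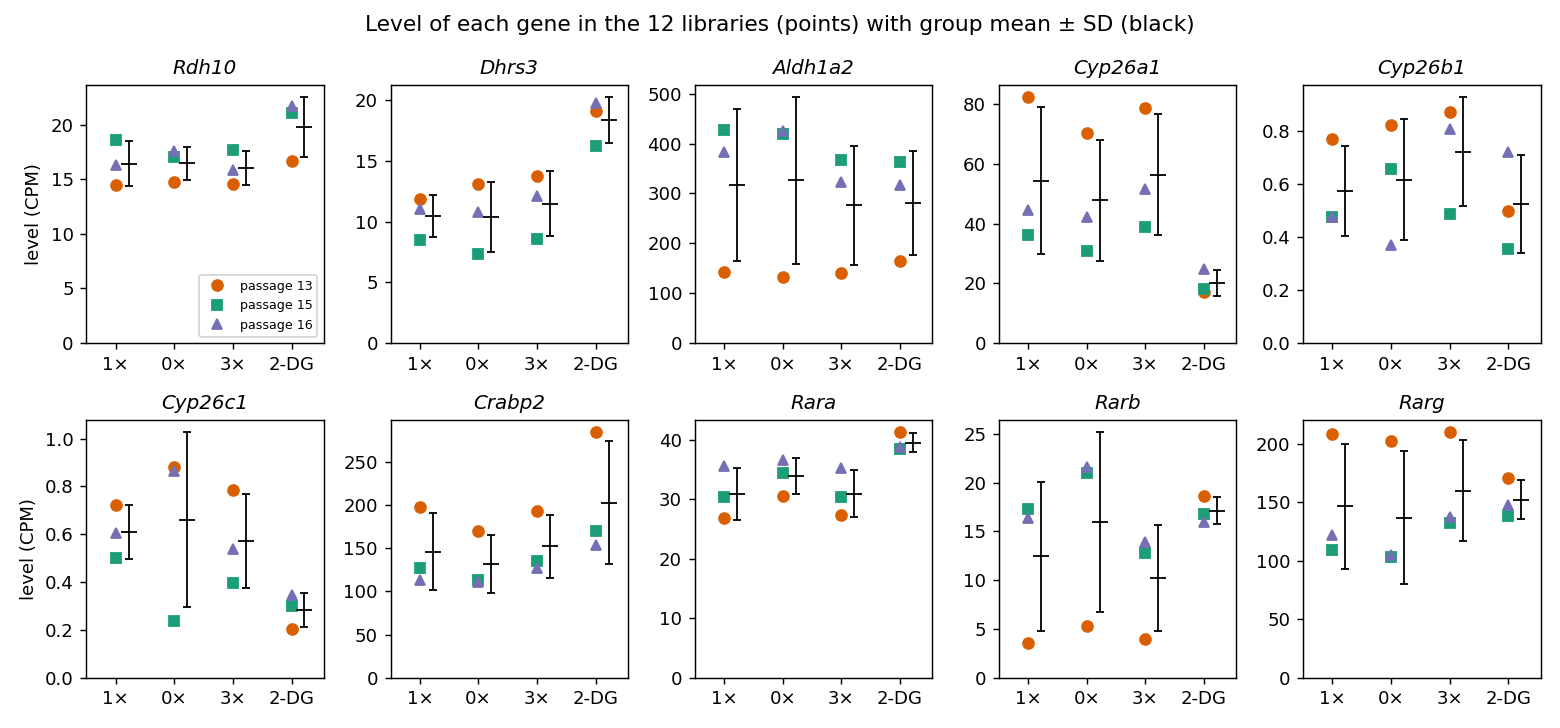
Level of each of the 10 genes (CPM, linear axis from 0) in 1×, 0× and 3× glucose and in 2-DG. Coloured points are the 3 passages and black bars the group mean ± SD (n = 3). In 2-DG the 3 points of *Cyp26a1* lie at 17.0 to 24.9 CPM, below the 9 others, and those of *Dhrs3* at 16.2 to 19.8 CPM, above them, while *Aldh1a2*, *Rarb*, *Rarg* and *Crabp2* split by passage.

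The first comparison asks what 2-DG did to these genes. *Cyp26a1* was lower and *Dhrs3* higher in 2-DG than in 1× glucose, and these 2 of the 10 genes were called, that is, had an adjusted p-value under 0.05 (edgeR's quasi-likelihood test, Benjamini-Hochberg adjustment over all genes). Over all genes tested 17.6% were called, 9.12% as higher and 8.51% as lower, so that 2 of 10 was near the background. With the passage as a block, 6 of the 10 were called, 4 higher (*Dhrs3*, *Crabp2*, *Rara* and *Rdh10*) and 2 lower (*Cyp26a1* and *Cyp26c1*), against 41.3% of all genes (21.1% higher and 20.2% lower). The groups did not overlap for 4 of the 10 genes (*Cyp26a1*, *Cyp26c1*, *Dhrs3* and *Rara*), against 35.4% of all genes. In bulk RNA, fewer cells of a type and less RNA per cell cannot be told apart.

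Among the breakdown enzymes, *Cyp26a1* (chr19:37697738-37701536, GRCm38.p6) had 82.3, 36.1 and 44.5 CPM in passages 13, 15 and 16 of 1× glucose and 17.0, 18.2 and 24.9 CPM in 2-DG. The 0× glucose libraries had 70.4, 30.8 and 42.1 CPM and the 3× glucose libraries 78.6, 38.9 and 51.5 CPM. Every 2-DG library thus lay below every other library, and the 3 passage 13 libraries without 2-DG lay above all others. The log2 fold change in 2-DG was −1.44 (SE 0.39, 95% interval −2.29 to −0.59, adjusted p = 0.0280, edgeR), with a lower level in 3 of 3 passages. With the block it was −1.33 (adjusted p = 0.000893, edgeR). Without the block the call was lost on leaving out 1× glucose of passage 13 (adjusted p = 0.0916, edgeR), 2-DG of passage 13 (0.0908) or 2-DG of passage 15 (0.0947), and with the most abundant transcript alone (−1.53, adjusted p = 0.0892).

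*Cyp26c1*, its neighbour on the chromosome (chr19:37685112-37693320), encodes an enzyme of the same kind. It had 0.72, 0.50 and 0.60 CPM in passages 13, 15 and 16 of 1× glucose and 0.20, 0.30 and 0.35 CPM in 2-DG. The groups did not overlap, and all counts of this gene fell on a predicted transcript model. The log2 fold change was −1.09 (SE 0.46, adjusted p = 0.132, edgeR), and with the block −1.06 (adjusted p = 0.0479, edgeR). *Cyp26b1* (chr6:84571414-84593908) ranged from 0.35 to 0.87 CPM over the 12 libraries, and its log2 fold change in 2-DG was −0.13 (95% interval −0.97 to 0.71, adjusted p = 0.860, edgeR).

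*Dhrs3* (chr4:144892534-144928209), whose enzyme returns retinal to retinol, had 11.9, 8.47 and 11.1 CPM in passages 13, 15 and 16 of 1× glucose and 19.1, 16.2 and 19.8 CPM in 2-DG. Its 0× and 3× glucose libraries lay between 7.35 and 13.8 CPM, so that all 2-DG libraries lay above all others. The log2 fold change was 0.81 (SE 0.23, 95% interval 0.31 to 1.31, adjusted p = 0.0324, edgeR), a 1.75-fold higher level in 3 of 3 passages. With the block it was 0.83 (adjusted p = 0.000121, edgeR). Without the block, *Dhrs3* was no longer called on leaving out any 1 of 5 of the 6 libraries (2-DG of passage 13, 15 or 16, or 1× glucose of passage 15 or 16), at adjusted p-values of 0.0576 to 0.119 (edgeR), without the filter on low counts (0.79, adjusted p = 0.0513) and with the most abundant transcript alone (0.58, adjusted p = 0.581). The deposited counts of *Dhrs3* were split over 9 transcripts, and a noncoding transcript model took 31.1% to 64.3% of them.

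Among the synthesis genes, *Rdh10* (chr1:16105882-16132550), the first enzyme of the pathway, had 14.4, 18.6 and 16.3 CPM in passages 13, 15 and 16 of 1× glucose and 16.7, 21.0 and 21.7 CPM in 2-DG. The groups overlapped, yet each 2-DG library exceeded the 1× glucose library of its passage. The log2 fold change was 0.27 (SE 0.13, adjusted p = 0.189, edgeR), with the block also 0.27 (SE 0.07, adjusted p = 0.0136, edgeR). *Aldh1a2* (chr9:71215789-71296243), which makes retinoic acid itself, had 143, 427 and 382 CPM in 1× glucose and 164, 363 and 317 CPM in 2-DG in the same order of passages. It was higher in 2-DG in passage 13 and lower in the others, with a log2 fold change of −0.17 (95% interval −1.35 to 1.01, adjusted p = 0.866, edgeR). In the fit with the block and without passage 13, chosen after seeing the data, *Aldh1a2* was lower in 2-DG (−0.25, adjusted p = 0.0126, edgeR). In passages 15 and 16 of 3× glucose *Aldh1a2* stood at 366 and 322 CPM, close to 2-DG. In 0× glucose it stood at 420 and 424 CPM.

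*Crabp2* (chr3:87948693-87953372), which carries retinoic acid to the receptors, had 197, 127 and 114 CPM in 1× glucose and 285, 171 and 153 CPM in 2-DG in passages 13, 15 and 16. Passage 13 was high in both groups, which overlapped. Within passages the differences were 0.53, 0.42 and 0.43 on the log2 scale. The log2 fold change was 0.47 (SE 0.29, adjusted p = 0.298, edgeR), and with the block 0.46 (SE 0.05, adjusted p = 6.66e-05, edgeR).

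Of the receptors, *Rara* (chr11:98927800-98974942) had 26.9, 30.3 and 35.6 CPM in passages 13, 15 and 16 of 1× glucose and 41.3, 38.4 and 38.7 CPM in 2-DG. The groups did not overlap, with a log2 fold change of 0.35 (SE 0.12, adjusted p = 0.0623, edgeR), and with the block of 0.36 (adjusted p = 0.00448, edgeR). *Rarg* (chr15:102234938-102257522) ranged from 110 to 208 CPM in 1× glucose and from 138 to 170 CPM in 2-DG, a log2 fold change of 0.05 (95% interval −0.63 to 0.73, adjusted p = 0.932, edgeR). In the fit with the block and without passage 13, chosen after seeing the data, *Rarg* was higher in 2-DG (0.31, adjusted p = 0.000496, edgeR). In passages 15 and 16 *Rarg* had 138 and 148 CPM in 2-DG and 133 and 137 CPM in 3× glucose. It had 110 and 122 CPM in 1× glucose and 103 and 105 CPM in 0× glucose. *Rarb* (chr14:16430839-17082331) had a log2 fold change of 0.46 (SE 0.64, 95% interval −0.94 to 1.87, adjusted p = 0.683, edgeR), and the block did not bring a call (adjusted p = 0.134, edgeR). That value joins 1 passage with a large difference and 2 with almost none, described below with the passages.

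**Figure D2:**
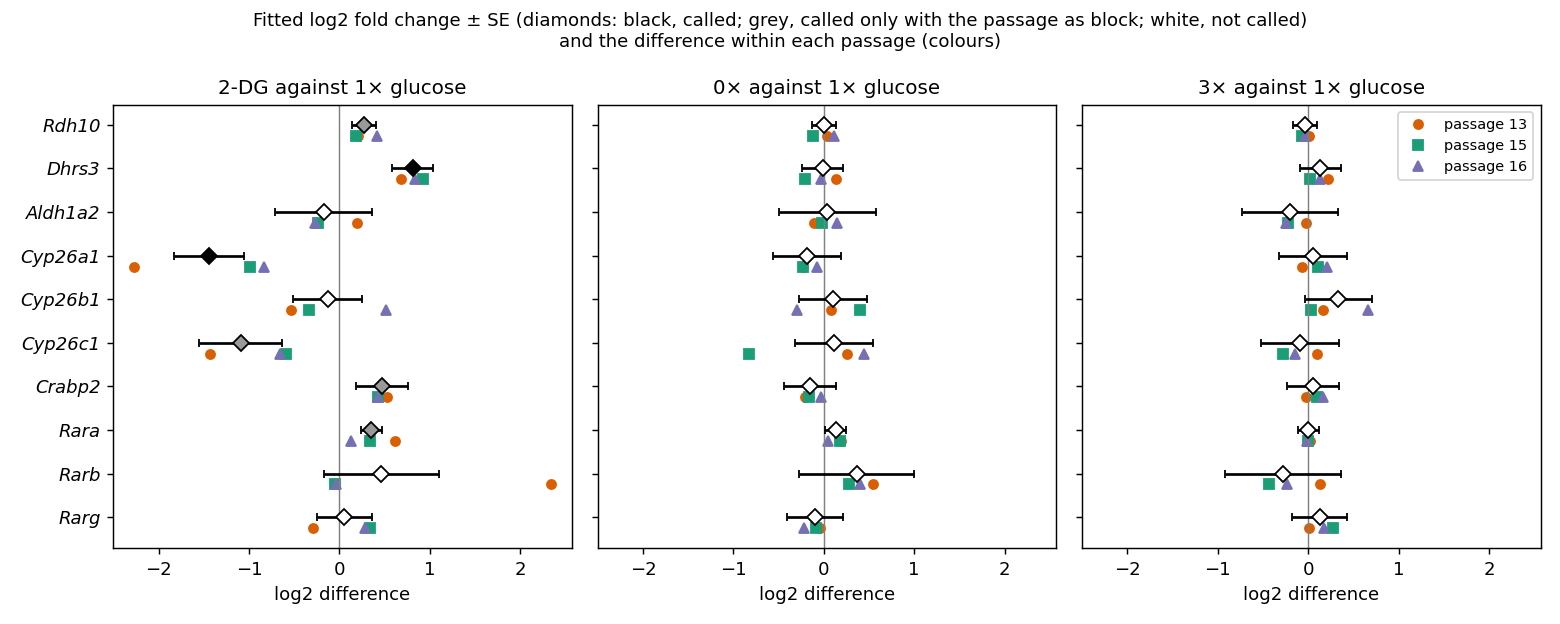
Log2 difference of each gene from 1× glucose for 2-DG, 0× and 3× glucose. Diamonds with bars are the fitted log2 fold change ± SE (black, called; grey, called with the passage as block alone; white, not called), and coloured symbols are the differences within passages 13, 15 and 16. *Cyp26a1* (−1.44) and *Dhrs3* (0.81) are the black diamonds, both in 2-DG, and the passage 13 point of *Rarb* at 2.34 stands far from its others at −0.05 and −0.04.

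No effect of the glucose level on these genes was detected. Against 1× glucose, 0 of the 10 were called in 0× glucose and 0 in 3× glucose, where over all genes 0.0118% (2 genes) and 0% were called by edgeR and 12 and 2 genes by DESeq2. At an unadjusted p under 0.05, edgeR gave 306 genes in 0× and 178 in 3× glucose, none of them among the 10. The log2 fold changes of the 10 genes lay between −0.19 and 0.36 in 0× glucose and between −0.28 and 0.33 in 3× glucose, with standard errors of 0.12 to 0.64. The block did not bring a call in either (lowest adjusted p = 0.473 in 0× and 0.905 in 3× glucose, edgeR), where over all genes 0.0177% and 0% were called. *Cyp26a1* differed by −0.19 (SE 0.38) in 0× and 0.05 (SE 0.37) in 3× glucose, and *Dhrs3* by −0.01 (SE 0.23) and 0.14 (SE 0.23). The 1× glucose libraries are the same in these comparisons and in that with 2-DG.

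2-DG was also set against 0× glucose, in which no glucose was present. *Cyp26a1* was again lower (log2 fold change −1.25, SE 0.39, adjusted p = 0.0447, edgeR) and *Dhrs3* higher (0.82, SE 0.23, adjusted p = 0.0292, edgeR), and these 2 of the 10 genes were called, against 18.9% of all genes. With the block 6 of the 10 were called, against 43.1%. The 2-DG libraries are the same as in the comparison with 1× glucose. The call of *Cyp26a1* was lost without 0× glucose of passage 13 (−0.86, adjusted p = 0.150, edgeR) or passage 16, without 2-DG of any passage, or without the filter on low counts (adjusted p = 0.0638, edgeR). The call of *Dhrs3* was lost without 0× glucose of passage 15 (0.62, adjusted p = 0.0917, edgeR) or passage 16, or without 2-DG of passage 13 or 16. With the most abundant transcript alone neither was called.

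Most of these genes differed between ES cell passages. In a fit with group and passage, 8 of the 10 genes were called between passages, all but *Cyp26b1* and *Cyp26c1*, against 46.2% of all genes tested. With the most abundant transcript alone only *Aldh1a2*, *Crabp2* and *Rarg* kept their call, and fewer genes were called over all genes as well. By the fitted values, passage 13 was lowest in 4 of the 8 (*Aldh1a2*, *Rarb*, *Rdh10* and *Rara*) and highest in 4 (*Cyp26a1*, *Rarg*, *Crabp2* and *Dhrs3*). Over all genes, 7840 were called, with passage 13 lowest in 3681 and highest in 3596, so that this split was near the background. For *Dhrs3* passage 16 lay close to passage 13 (−0.13, SE 0.09, on the log2 scale). *Aldh1a2* had 133 to 143 CPM in the 3 passage 13 libraries without 2-DG and 322 to 427 CPM in the 6 of passages 15 and 16, with no overlap. It was higher by 1.43 (SE 0.09) in passage 15 and by 1.31 (SE 0.09) in passage 16 on the log2 scale (adjusted p = 3.93e-06, edgeR). *Cyp26a1* stood the other way, with 70.4 to 82.3 CPM in those passage 13 libraries and 30.8 to 51.5 CPM in passages 15 and 16 (adjusted p = 0.00804, edgeR).

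The receptors did not move together between passages. *Rarg* had 203 to 210 CPM in passage 13 without 2-DG and 103 to 137 CPM in passages 15 and 16, so that it fell by 0.73 (SE 0.10) and 0.64 (SE 0.10) from passage 13 on the log2 scale (adjusted p = 0.000318, edgeR). *Rarb* had 3.60 to 5.30 CPM against 12.8 to 21.6 CPM, the opposite direction. *Rara* differed least of the receptors, by 0.09 (SE 0.07) and 0.23 (SE 0.07), and its call (adjusted p = 0.0468, edgeR) was lost on leaving out any 1 of 10 of the 12 libraries (adjusted p = 0.0629 to 0.169, edgeR; the exceptions were 2-DG of passages 13 and 16). The call of *Rarb* (adjusted p = 0.0225, edgeR) was lost without passage 13 of 0× (0.0910), 1× (0.1004) or 3× glucose (0.0941). The other 6 were called on leaving out any 1 library. *Crabp2* was lower in the later passages, by −0.62 (SE 0.04) in passage 15 and −0.73 (SE 0.04) in passage 16.

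**Figure D3:**
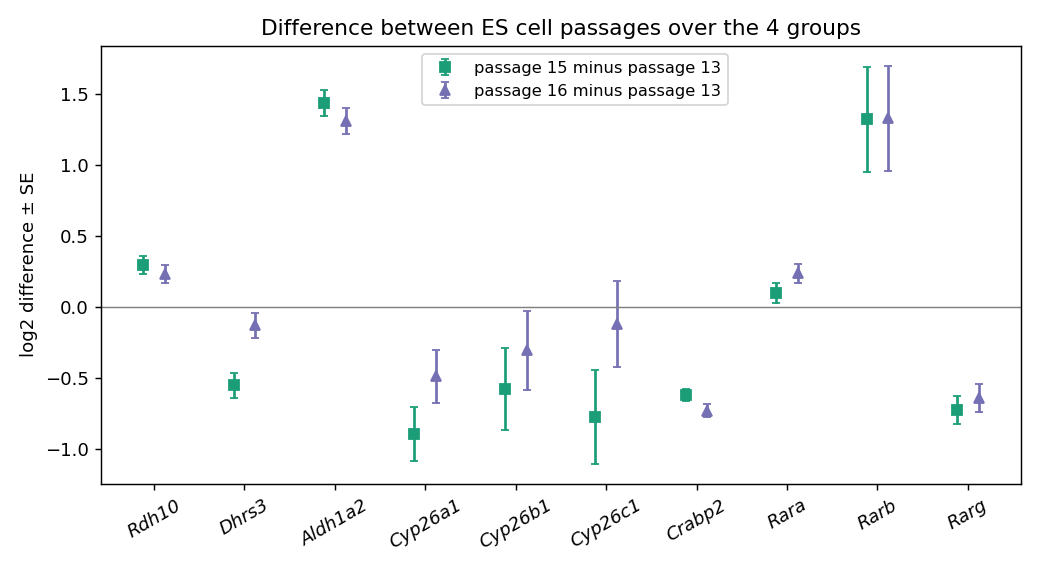
Fitted log2 difference ± SE of passage 15 (squares) and passage 16 (triangles) from passage 13 for each gene, over the 4 groups. *Aldh1a2* (1.43 and 1.31) and *Rarb* (1.32 and 1.33) lie highest above 0, and *Cyp26a1*, *Rarg* and *Crabp2* lie below 0 in both passages.

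Whether 2-DG acted alike in every passage was tested with an interaction of 2-DG and passage, a model chosen after seeing the data that takes the differences among the other 3 groups as equal in every passage. Of the 10 genes 2 were called, *Rarb* (adjusted p = 0.00103, edgeR) and *Cyp26a1* (adjusted p = 0.00144, edgeR), against 1.88% of all genes (319 genes, and 144 without 1× glucose of passage 15, 171 without 3× glucose of passage 16 and 186 without 1× glucose of passage 13). Both stayed called without any 1 of the 9 libraries of 0×, 1× and 3× glucose, at adjusted p-values of up to 0.00442 for *Rarb* and 0.00578 for *Cyp26a1* (edgeR). Each passage holds 1 library with 2-DG, so that the difference rests on single 2-DG libraries.

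*Rarb* had 164, 659 and 756 counts (3.60, 17.3 and 16.3 CPM) in passages 13, 15 and 16 of 1× glucose. In 0× glucose it had 5.30, 21.0 and 21.6 CPM and in 3× glucose 3.95, 12.8 and 13.9 CPM. In 2-DG it had 18.6, 16.8 and 15.9 CPM. Without 2-DG, passage 13 was thus low in all 3 groups, and with 2-DG the passage 13 library stood within the range of the other passages. In the interaction model *Rarb* was higher in 2-DG by 2.20 (SE 0.15) on the log2 scale in passage 13, whereas the values in passages 15 and 16 were 0.07 (SE 0.14) and −0.03 (SE 0.15). For *Cyp26a1* the effects were −2.21 (SE 0.09), −0.98 (SE 0.09) and −0.91 (SE 0.09). In both genes the passage 13 libraries that stood apart without 2-DG lay close to the other passages with it. *Aldh1a2* did not do so, at 164 CPM in passage 13 with 2-DG against 363 and 317 CPM.

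The transcripts that carried *Rarb* differed as well. In passage 13 of 0×, 1× and 3× glucose, the RefSeq transcript NM_001289760.1 took 96, 112 and 87 counts, which is 57.1%, 68.3% and 64.0% of the gene, and NM_011243.2 took 70, 49 and 36. In passage 13 with 2-DG all 636 counts were given to NM_011243.2. In passages 15 and 16 that transcript held 95% to 100% in every group. Counts of single transcripts are estimates of StringTie, and the counts of each start site were not resolved here.

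*Rarb* and *Cyp26a1* were also the genes, of the 8 with a promoter at hand, whose promoter held a DR5 element, the direct repeat with a spacer of 5 bases that is a well known binding sequence of retinoic acid receptors. The repeat is printed with 6 bases on each side, because these 2 genes showed the difference between passages in the response to 2-DG. The sequences come from RefSeq (GRCm38.p6), are written 5′ to 3′ on the strand of the gene, and have the repeat in capitals. The *Rarb* stretch lies on the minus strand at chr14:16575507-16575535 and that of *Cyp26a1* on the plus strand at chr19:37697770-37697798.
Rarb: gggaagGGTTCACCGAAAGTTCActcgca
Cyp26a1: taaagaTGAACTTTGGGTGAACTaatttg
In *Rarb* the repeat lay 53 to 37 bases before the RefSeq start on the strand of the gene. In *Cyp26a1* it lay 32 to 16 bases before the start and reads as the repeat on the opposite strand. The search took the half-site AGGTCA and the variants spelled AGTTCA and spelled GGGTCA and spelled GGTTCA, repeated on either strand with 1, 2 or 5 bases between them, from 250 bases before to 50 bases after the start. These 8 genes had 14 promoters in the table, with none for *Rdh10* and *Crabp2*. The repeat with 5 bases was in 32 of 32851 promoters (0.0974%), and those with 1 or 2 bases, found in 0 of the 8 genes, in 0.222% and 0.268%. Counted by gene, as for the 8 here, the repeat with 5 bases was in 31 of 27025 genes (0.115%). Those with 1 or 2 bases were in 0.263% and 0.311% of genes. A match is a description of letters and not a bound site. Both genes also have annotated transcripts with other starts, and both repeats lie inside the RefSeq spans of the genes given above. The start used for *Rarb* is thus inside the gene and not its outermost start.

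The ratio of *Aldh1a2* to *Cyp26a1*, both in CPM per kilobase, sets the gene of synthesis against that of breakdown in each library. It was 1.38 to 1.5 in passage 13 without 2-DG and 4.95 to 10.8 in passages 15 and 16 without 2-DG. In 2-DG it was 7.63, 15.8 and 10.1 in passages 13, 15 and 16. In each passage the 2-DG library had the highest ratio of the 4. These are levels of RNA, and retinoic acid was not measured.

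Genes with the most similar pattern were taken by Pearson's correlation of log2 CPM over the 12 libraries, as a description, since all points share passages and groups. For *Cyp26a1* it was *T*, the mesodermal factor Brachyury (r = 0.986), followed by *Il17rd*, an inhibitor of FGF signalling (0.984), and *Cmtm7* (0.982). *T* ranged from 64.6 to 330 CPM, was lower in 2-DG (log2 fold change −1.57, SE 0.36, adjusted p = 0.0136, edgeR) and was highest in passage 13 without 2-DG. For *Rarb* they were *Pbx2* (0.987), *Tbc1d20* (0.978) and *Meis2* (0.969), where Pbx and Meis proteins are partners of Hox factors and *Meis2* is on the list of retinoic acid-responsive genes. *Aldh1a2* was most like *Atp2c1* (0.990), *Rhou* (0.990) and *Eif4e3* (0.986), *Rarg* most like *Smim10l2a* (0.994), *Pkp2* (0.993) and *Atf7ip2* (0.985), and *Crabp2* most like *Psd3* (0.992), *Dtna* (0.984) and *Ccdc149* (0.982). *Dhrs3* went with *Lpar2* (0.987), *Plcg2* (0.985) and *Map3k9* (0.975), *Rdh10* with *Sirt1* (0.989), *Pias1* (0.958) and *Tll2* (0.952), and *Rara* with *Abcb8* (0.973), *Sgpl1* (0.956) and *Sord* (0.953). *Cyp26b1* (*Gng4*, *Spag1* and *Zfp692*, 0.843 to 0.881) and *Cyp26c1* (*Gal3st3*, *Bmyc* and *Dnah11*, 0.899 to 0.924) have few counts. Among the 10 genes themselves, *Aldh1a2* and *Rarg* ran most against each other (−0.957) and *Cyp26a1* and *Cyp26c1* most together (0.855).

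**Figure D4:**
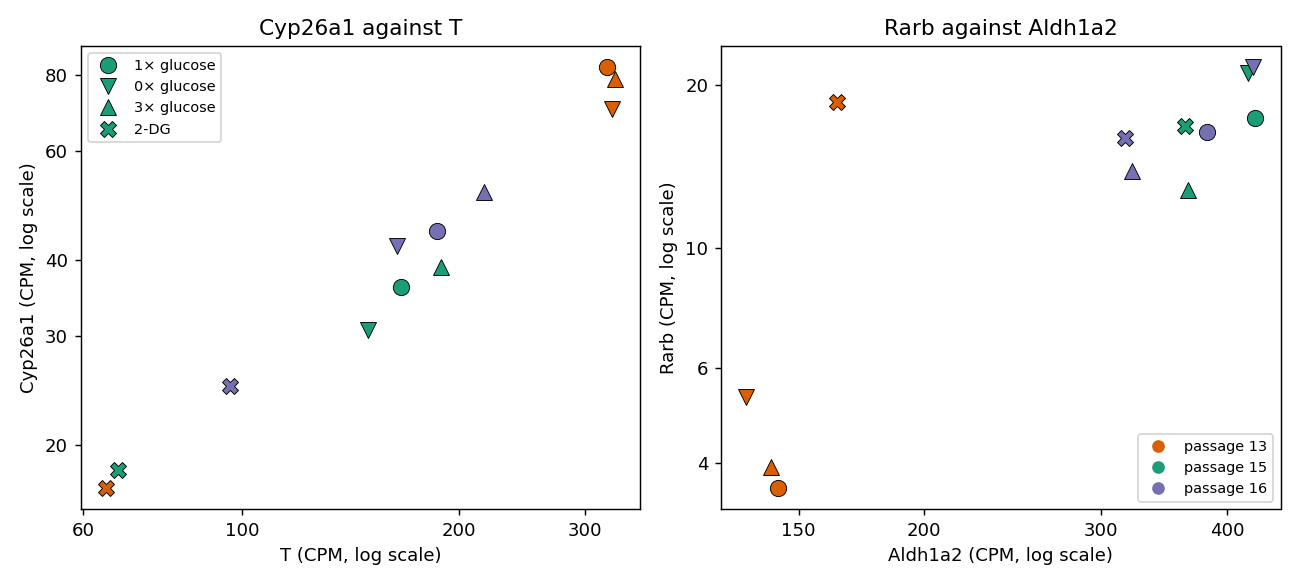
*Cyp26a1* against *T* and *Rarb* against *Aldh1a2* in the 12 libraries (CPM, log scales). Symbols are the groups and colours the passages. *Cyp26a1* follows *T* through passages and 2-DG, whereas *Rarb* and *Aldh1a2* are low together in passage 13 apart from the library with 2-DG, where *Rarb* is at 18.6 CPM.

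The rest of the pathway was read from lists. Of 27 other retinoid enzymes and carriers, 16 were tested, and in 2-DG 0 rose and 2 fell (with the block 3 and 3), with a median log2 fold change of −0.01 against 0.00 over all genes. For this and the next lists, the share over all genes was 9.12% higher and 8.51% lower (21.1% and 20.2% with the block). The members that fell were *Fabp5*, a fatty acid binding protein that also binds retinoic acid (−0.52, adjusted p = 0.0266, edgeR), and *Dhrs4*, a retinal reductase (−0.25, adjusted p = 0.0473, edgeR). The other enzymes that can make retinoic acid, *Aldh1a1* and *Aldh1a3*, were too low to be tested. Of 18 receptor partners and cofactors, 2 rose and 0 fell (with the block 7 and 2), with a median of 0.02. They were the coactivator *Ncoa1* (0.59, adjusted p = 0.0340, edgeR) and the cofactor *Trim24* (0.36, adjusted p = 0.00308, edgeR).

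Of 31 genes known to respond to retinoic acid in embryos or ES cells, 30 were tested. In 2-DG 5 rose and 4 fell (with the block 13 and 8), and the median was 0.03. Among those that rose were *Neurog2*, a proneural factor (1.69, SE 0.39, adjusted p = 0.0145, edgeR), *Pax6*, a neural factor (1.29, SE 0.40, adjusted p = 0.0464), and *Zfp703* (0.85, SE 0.19, adjusted p = 0.0118). Those that fell, outside the 5 largest changes, were *Zfp503*, *Hoxa2*, *Hoxb1* and *Hoxd4*, by 0.57, 0.37, 0.35 and 0.29 on the log2 scale. Between passages 24 of the 30 were called, against 46.2% of all genes, with passage 13 lowest in 12 and highest in 7. Picked after their values were seen, the nuclear receptor genes *Nr2f1* and *Nr2f2* were higher by 2.30 (SE 0.30) and 2.41 (SE 0.17) in passage 15 than in passage 13 and by 2.02 and 1.94 in passage 16.

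The genes of the posterior growth zone, where *Cyp26a1* is known to act, were also compared in 2-DG. Of 20 tested, 1 rose (*Gdf11*, a TGF-beta family signal, 0.40, outside the 5 largest changes) and 8 fell (with the block 1 and 13), with a median of −0.74, and for 18 of the 20 the fitted value was below 0. Among the called genes the 5 largest changes were in the signals *Fgf17* (−2.74, SE 0.52, adjusted p = 0.00572, edgeR), *Wnt3a* (−2.72, SE 0.52, adjusted p = 0.00634) and *Wnt5b* (−1.45, SE 0.32, adjusted p = 0.0121), the FGF inhibitor *Spry4* (−1.71, SE 0.23, adjusted p = 0.000997) and *T*. Parts of this list had been seen to fall in these data before, so that its direction is not independent evidence. Between passages 16 of the 20 were called (46.2% over all genes), with passage 13 highest in 12 and lowest in 2. Of 17 tested genes of somites and anterior mesoderm, where *Aldh1a2* is known to act, 1 rose in 2-DG (*Wt1*, 1.57, adjusted p = 0.0377, edgeR) and 0 fell (with the block 2 and 3), with a median of −0.02 (0.14 with the block). Between passages 15 of the 17 were called (46.2% over all genes), with passage 13 lowest in 14 and highest in 1. Of all 16966 genes tested, 21.7% were called between passages with passage 13 lowest and 21.2% with passage 13 highest. These are 3681 and 3596 of the 7840 called genes, and in the other 563 passage 13 lay between. No gene of any list was called in 0× or 3× glucose. By the fitted values, 16 of the 17 somite and anterior mesoderm genes were higher in 0× glucose (median 0.29) and 16 were lower in 3× glucose (median −0.20). Of the 20 posterior growth zone genes, 15 were lower in 0× glucose (median −0.05) and 19 higher in 3× glucose (median 0.11). The genes of a list share the same libraries, and these directions were not tested.

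**Figure D5:**
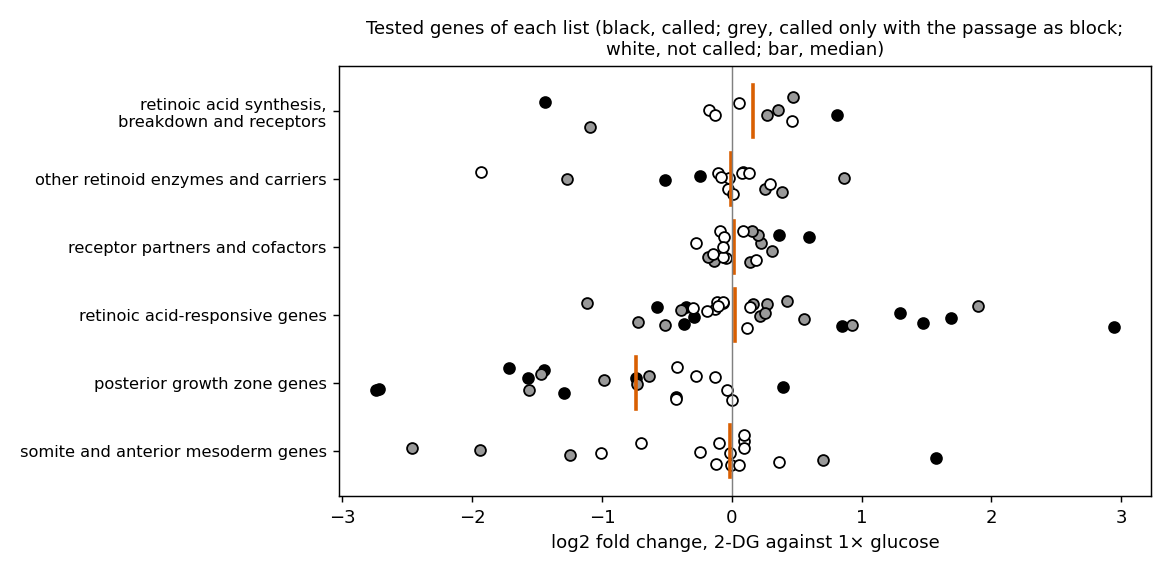
Log2 fold change between 2-DG and 1× glucose of every tested gene of the 10 and of each list (black, called; grey, called with the passage as block alone; white, not called; vertical bar, median). The posterior growth zone genes have a median of −0.74, and the medians of the other lists lie between −0.02 and 0.16.

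Summed levels of cell type markers differed between 2-DG and 1× glucose in some lists and between passages in others. The summed level of 6 paraxial and presomitic mesoderm markers was 650 to 1044 CPM in 1× glucose and 404 to 788 CPM in 2-DG (0 called higher and 1 lower), and among libraries without 2-DG it was 650 to 725 CPM in passage 13 and 911 to 1119 CPM in passages 15 and 16. Mean *T*, *Tbx6* and *Msgn1* were 225, 224 and 47.9 CPM in 1× glucose and 75.9, 144 and 16.2 CPM in 2-DG. *Meox1*, *Tcf15* and *Foxc2* hardly differed, at 151, 42.1 and 182 CPM in 1× glucose and 150, 44.8 and 180 CPM in 2-DG. The 8 neural progenitor markers summed to 181 to 306 CPM in 1× glucose and 217 to 413 CPM in 2-DG, with 3 called higher and 0 lower. Without 2-DG they summed to 289 to 319, 206 to 225 and 156 to 196 CPM in passages 13, 15 and 16. Mean *Sox1*, *Sox2*, *Sox3*, *Pax6* and *Irx3* were higher in 2-DG than in 1× glucose. Mean *Nes*, *Pax3* and *Olig2* were lower, at 75.1, 20.8 and 0.13 CPM in 2-DG and 103, 24.8 and 0.37 CPM in 1× glucose. The 6 markers of endothelium and blood summed to 50.2 to 66.3 CPM in 1× glucose and 5.97 to 15.2 CPM in 2-DG (0 called higher and 2 lower), most of it *Lmo2*. The 7 definitive endoderm markers summed to 60.6 to 88.1 CPM in passage 13 without 2-DG and 154 to 244 CPM in passages 15 and 16, while 1× glucose (75.4 to 227 CPM) and 2-DG (97.3 to 149 CPM) overlapped, with 1 called higher and 1 lower. Most of the difference between passages was in *Cer1*, with means of 2.42 CPM in passage 13 and 103 CPM in the later passages. *Cdh1* went the other way (43.8 and 37.3 CPM). The 7 pluripotency markers summed to 42.4 to 59.5 CPM in 1× glucose and 58.0 to 71.7 CPM in 2-DG, where 0 were called higher and 1 lower. The 6 fibroblast markers summed to 34.3 to 41.8 CPM in 1× glucose and 17.1 to 26.8 CPM in 2-DG (0 called higher and 1 lower), and overlapped between passages. The part of these cell types in the values of *Cyp26a1*, *Dhrs3*, *Aldh1a2* and *Rarb* was not tested.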

How the data were processed

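The authors deposited, for each of the 12 libraries, estimated counts of 120312 RefSeq transcripts as whole numbers. Per the labels, Trim Galore, HISAT2, SAMtools, Picard and StringTie were used with mm10 (versions not given in the sources used here). The kit was directional, and whether counting used the strand is not given. The authors' 3 tables of DESeq2 fold changes and p-values were not used. All transcripts were named by the RefSeq table of GRCm38.p6, summed per gene, filtered by filterByExpr and fitted with edgeR 4.0.16 in R 4.3.3 (TMM, quasi-likelihood, 4 groups together, no block, two-sided, threshold 0.05). CPM use the TMM factors. Differences within a passage are of log2(CPM + 0.1), and patterns of log2(CPM + 0.5). Alternatives were the passage as block, median-of-ratios factors, no filter, a mean of at least 100 counts, DESeq2 1.42.0, only the groups compared, the most abundant transcript alone and leaving out each library.

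Same-numbered libraries share an ES cell passage in the labels. Their deviations from group means correlated at 0.182 to 0.763 in 18 pairs (different passages: −0.585 to 0.317 in 36), and the common dispersion was 0.0316, and 0.0063 with the block. P-values measure the spread between 3 cultures of 1 line. An exact permutation test of 3 against 3 cannot give a two-sided p below 0.1. On simulated counts, a log2 fold change of 1 was recovered for 83.0% of changed genes in 2-DG against 1× glucose, and one of 2 for 99.0%. For the difference by passage these were 0% and 79.5%. The simulation used the dispersions of the fit without the block and held no other differences between passages. It changed genes with a mean of at least 100 counts. These rates thus do not give the power of the block or interaction fits on the real counts, nor that for genes with few counts. Members and lists were chosen with earlier results of these data known. Genes named were the 10 members, in each list at most 5 called genes of largest change in 2-DG with the same direction in 3 passages, and the 3 nearest patterns of each member. Some genes that this rule names are not reported here.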

Additional observations from a re-analysis of the deposited data

Results flagged for a closer look

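The difference between 2-DG and the other groups itself differed between ES cell passages in *Rarb* (adjusted p = 0.00103, edgeR) and in *Cyp26a1* (adjusted p = 0.00144, edgeR), by a test of the interaction between 2-DG and passage. The effects in passages 13, 15 and 16 were 2.20, 0.07 and −0.03 for *Rarb* and −2.21, −0.98 and −0.91 for *Cyp26a1* on the log2 scale. In passage 13 *Rarb* had 636 counts (18.6 CPM) with 2-DG and 136 to 168 (3.60 to 5.30 CPM) without it. *Cyp26a1* had 580 counts (17.0 CPM) with 2-DG and 2230 to 3750 (70.4 to 82.3 CPM) without it. Each effect rests on 1 library with 2-DG per passage, and the cause was not tested.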

How the results depend on the processing

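Across 40 values (10 genes in 4 comparisons) and 632 alternative values, 580 kept their side of the threshold, 23 lost and 28 gained a call, and 1 uncalled value turned and was then called: *Rarb* in 2-DG against 0× glucose, at 0.10, became −0.38 (adjusted p = 0.0107, edgeR) with the replicate block and without passage 13. Sign changes between uncalled values count as kept. With the passage as replicate block, 7001 genes and 6 of the 10 were called in 2-DG against 1× glucose and 7305 and 6 against 0× glucose. With the block and without passage 13 these were 5638 and 7, and 6058 and 7, and without passage 16 they were 5432 and 4, and 5400 and 4. Without passage 15 it was 4 of the 10 against 0× glucose, where the count over all genes is not reported here. In 0× and 3× glucose 5 and 1 genes were called without passage 13 and 4 and 1 without passage 16. These block fits without a passage were chosen after seeing the data.

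Without the block, leaving out 1 library gave 1734 to 2352 genes and 0 to 2 of the 10 in 2-DG against 1× glucose (1734 without 1× glucose of passage 15, 1738 and 1960 without 2-DG of passages 15 and 13), 2051 to 2619 and 0 to 2 against 0× glucose (2051 without 0× glucose of passage 15, 2072 and 2136 without 2-DG of passages 15 and 13), 1 to 3 genes in 0× against 1× glucose, and 5857 to 7805 genes and 6 to 8 of the 10 between passages. The most abundant transcript alone gave 653 genes and 0 of the 10 against 1× glucose, 775 and 0 against 0× glucose, 2 genes in 3× glucose, and 1879 genes and 3 of the 10 between passages. Without the filter *Dhrs3* lost its call against 1× glucose and *Cyp26a1* lost its call against 0× glucose. Fitting only the groups compared gave 1896 genes against 1× glucose and 0 in 0× glucose, and DESeq2 gave 12 genes in 0× and 2 in 3× glucose. The cause of these shifts was not tested. The 12 to 35 counts of *Cyp26b1* and 7 to 33 of *Cyp26c1* limit what could be detected for them.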
